A study of Mus musculus with 108 samples.

Results

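The collagen genes were the autosomal protein-coding mouse genes whose symbol is Col, a number, the letter a and a number, as in Col1a1. This rule gave 42 genes of the 20021 autosomal protein-coding genes that have a curated RefSeq transcript, spread over 14 chromosomes. Col4a5 and Col4a6 also carry such symbols but lie on chromosome X, and these 2 genes were left out. The rule itself uses symbols and annotation and no measured value.

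Each collagen gene encodes an alpha chain, and triple helices of such chains form the fibrils, networks and filaments of the extracellular matrix. In liver, fibrillar collagens type I and type III are made mainly by hepatic stellate cells and portal fibroblasts, and their build-up is the hallmark of fibrosis. Basement membrane collagens surround vessels and bile ducts and are made by endothelial and other non-parenchymal cells, whereas hepatocytes, which make up most of the liver mass, transcribe few collagen genes.

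Chromatin came from livers of C57BL/6 female mice that had been fixed in formalin and embedded in paraffin, and was profiled by ChIP-seq for H3K4me3, H3K27me3, H3K27ac and H3K4me1. The SD 3m group was 8 mice aged 3 months on standard diet, with 30 libraries. The SD 12m group was 8 mice aged 12 months on standard diet, with 29 libraries. The CR 12m group was 9 mice aged 12 months with 29 libraries, which received 30% fewer calories from 3 months of age on. The labels name no genotype or agent besides diet and age. A further standard diet group aged 6 months was not analysed here.

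For each mark the authors pooled all libraries of a group, and they assigned 1 of 8 chromatin states to every bin of 200 bp. States 1 (active TSS) and 2 (flanking TSS) carry H3K4me3, states 3 and 4 are active enhancers, and state 5 is a poised enhancer. State 6 carries only H3K27me3, the mark of Polycomb repression. State 7 combines weak H3K4me3 with minimal H3K27me3, and state 8, called quiescent, carries none of the 4 marks. Each group thus has 1 segmentation, so no value below could be set against the spread between mice, no test across mice was run, and no p-value is given. The number of reads behind a state is unknown. Where 3 values follow each other without group names, they stand for SD 3m, SD 12m and CR 12m, and a pair of values for the 12-month groups has SD 12m first. SD 12m and CR 12m are each compared with the same SD 3m segmentation. As whole liver was used, fewer cells of a type and less of a mark per cell cannot be told apart.

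For every gene, the state was read in the bin that holds the TSS, in the 20 bins within 2 kb of the TSS, and in the bins of the gene body, from the start to the end of the longest curated transcript. The same values over all 20021 genes serve as background. Over all autosomal bins, state 6 took 8.26%, 12.4% and 9.42%, and state 8 took 66.0%, 51.8% and 62.1%. H3K27me3 was profiled in 7, 8 and 6 libraries of these groups and H3K4me3 in 7, 8 and 5. The part that these differences between the groups have in the values below was not tested.

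Marker genes of hepatocytes, the main cells of the labelled tissue, were in active states. The TSS bin of 7 of 8 of them was in states 1 to 4 in SD 3m (Serpina1c was in state 7), and that of 8 of 8 in each 12-month group. The TSS bin of 0 of 7 sinusoidal endothelial markers was in state 6 in any group. Over all genes, state 6 held 9.97%, 13.8% and 11.5% of the TSS bins, so that 0 in so short a list is near the background. Among 9 stellate cell markers, the number of TSS bins in state 6 was 0, 4 and 4. Among 5 Kupffer cell markers on autosomes the counts were 2, 5 and 4. They were 1, 3 and 3 among 5 portal fibroblast markers, and 0, 1 and 0 among 5 cholangiocyte markers. In a list of this size the cholangiocyte counts are also near the background. The part of other cell types in the collagen values was not tested.

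The sequence before the TSS is shown for 7 collagen genes that stand for the TSS bin states seen, so that CpG content can be read beside the states. The bases come from RefSeq (GRCm38.p6), 5′ to 3′ on the strand of the gene. They end at the base before the TSS or, for Col5a1 and Col27a1, before the first base of any annotated exon. Capitals mark CpG dinucleotides. Col5a1 and Col27a1 had a TSS bin in state 1 in SD 3m, Col3a1 in state 7, Col8a2 in state 6 and Col6a1 in state 5. Col1a2 and Col18a1 were in state 8 in SD 3m and in states 6 and 4, respectively, in both 12-month groups.
Col5a1 (chr2:27886175-27886380, forward strand): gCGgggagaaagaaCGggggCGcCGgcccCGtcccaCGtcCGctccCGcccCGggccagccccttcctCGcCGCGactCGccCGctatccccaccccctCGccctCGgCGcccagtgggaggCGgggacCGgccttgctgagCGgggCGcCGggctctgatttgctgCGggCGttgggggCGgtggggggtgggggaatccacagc
Col27a1 (chr4:63215162-63215317, forward strand): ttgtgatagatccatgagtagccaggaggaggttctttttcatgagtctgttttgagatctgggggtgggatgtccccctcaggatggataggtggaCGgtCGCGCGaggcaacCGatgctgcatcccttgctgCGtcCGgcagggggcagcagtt
Col3a1 (chr1:45311288-45311537, forward strand): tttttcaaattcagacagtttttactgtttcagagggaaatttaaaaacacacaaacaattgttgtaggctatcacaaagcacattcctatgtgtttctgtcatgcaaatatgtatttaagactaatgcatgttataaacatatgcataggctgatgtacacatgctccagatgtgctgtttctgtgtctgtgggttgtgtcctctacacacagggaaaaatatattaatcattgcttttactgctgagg
Col1a2 (chr6:4505368-4505617, forward strand): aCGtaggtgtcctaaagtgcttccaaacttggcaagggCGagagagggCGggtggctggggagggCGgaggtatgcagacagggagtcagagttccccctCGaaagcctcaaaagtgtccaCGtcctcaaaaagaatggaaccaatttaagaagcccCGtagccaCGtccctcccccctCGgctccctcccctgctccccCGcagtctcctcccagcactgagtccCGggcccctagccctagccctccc
Col8a2 (chr4:126286544-126286793, forward strand): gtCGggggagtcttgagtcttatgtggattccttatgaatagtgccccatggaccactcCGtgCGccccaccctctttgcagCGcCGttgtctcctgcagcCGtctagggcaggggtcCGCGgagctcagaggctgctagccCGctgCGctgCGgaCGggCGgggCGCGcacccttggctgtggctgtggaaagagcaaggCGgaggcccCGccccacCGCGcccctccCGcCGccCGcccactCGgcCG
Col18a1 (chr10:77166531-77166780, reverse strand): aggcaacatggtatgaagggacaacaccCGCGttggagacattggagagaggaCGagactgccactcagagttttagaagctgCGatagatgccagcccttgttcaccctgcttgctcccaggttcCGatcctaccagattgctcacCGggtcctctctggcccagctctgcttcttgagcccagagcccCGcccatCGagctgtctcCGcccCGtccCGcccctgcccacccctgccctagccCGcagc
Col6a1 (chr10:76726045-76726294, reverse strand): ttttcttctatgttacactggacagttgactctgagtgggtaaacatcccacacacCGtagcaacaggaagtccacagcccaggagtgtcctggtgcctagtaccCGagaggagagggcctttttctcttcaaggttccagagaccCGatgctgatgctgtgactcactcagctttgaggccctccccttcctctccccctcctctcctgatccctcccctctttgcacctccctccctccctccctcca
The CpG count of these stretches was 25 in the 206 bases of Col5a1 and 24 in the 250 bases of Col8a2. It was 12 for Col18a1 and 11 for Col1a2, 7 in the 156 bases of Col27a1, 3 for Col6a1 and 0 for Col3a1. The shortened stretches leave out the bases nearest the TSS. In the full 250 bases before the TSS the count was 28 for Col5a1 and 15 for Col27a1. The promoter of Col3a1 was the only one of the 7 that held the letters TATAAA on either strand.

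Few collagen genes had an active TSS in any group. The TSS bin was in state 1 or 2 in 3 of 42 collagen genes in SD 3m (Col5a1, Col14a1 and Col27a1), against 46.4% of all genes. In SD 12m, 2 collagen genes were in these states (Col4a1 and Col4a2), against 40.5% of all genes, and in CR 12m there were 3 (Col4a1, Col4a2 and Col27a1), against 35.7%. In SD 3m the commonest state at collagen TSS was state 8, with 20 genes, or 47.6%, against 25.5% of all genes. This count was 12 in SD 12m (background 19.4%) and 14 in CR 12m (background 23.5%).

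State 6 was the commonest state at collagen TSS at 12 months. It held the TSS bin of 9 collagen genes (21.4%) in SD 3m, where the background was 9.97%. It held 20 (47.6%) in SD 12m, with a background of 13.8%, and 19 (45.2%) in CR 12m, with a background of 11.5%. The share of collagen TSS in state 6 was thus above the share of all genes in each of the 3 groups. The poised enhancer state 5 held 8 collagen TSS in SD 3m (background 6.03%), 1 in SD 12m (background 1.64%) and 0 in CR 12m (background also 1.64%). States 3 and 4 held 0, 7 and 5 collagen TSS in the same order, against 10.5%, 20.9% and 26.1% of all genes. State 7 held 2, 0 and 1, against 1.56%, 3.68% and 1.47% of all genes.

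**Figure D1:**
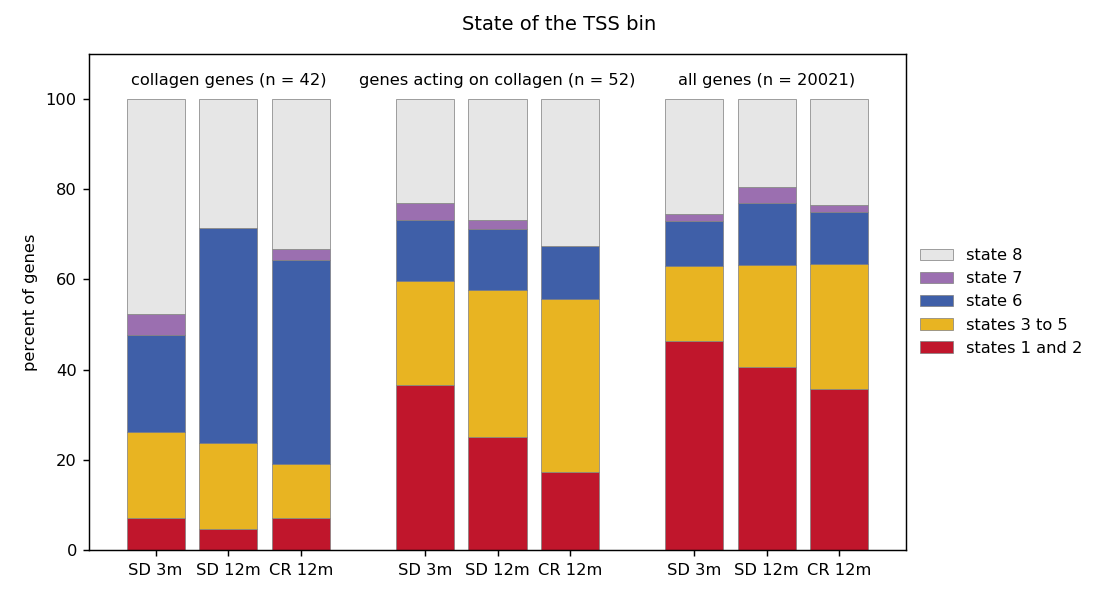
Stacked bars give the percent of genes (y axis) whose TSS bin was in states 1 and 2, states 3 to 5, state 6, state 7 or state 8, for 42 collagen genes, 52 genes that act on collagen and 20021 genes in all, in each of the 3 groups (x axis, 1 segmentation each). State 6 took 21.4%, 47.6% and 45.2% of the collagen genes in SD 3m, SD 12m and CR 12m and 9.97%, 13.8% and 11.5% of all genes.

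The TSS bin had another state than in SD 3m in 24 collagen genes (57.1%) in SD 12m, against 32.7% of all genes, and in 23 (54.8%) in CR 12m, against 35.5%. With the states merged into 5 classes (TSS states 1 and 2, enhancer states 3 to 5, state 6, state 7 and state 8) these counts were 19 (background 22.9%) and 21 (background 25.9%). The TSS bin of 12 collagen genes (28.6%) was in state 6 in SD 12m but not in SD 3m, against 6.4% of all genes. That of 1 collagen gene, Col6a2, left state 6 (2.38%), which is near the background of 2.56%. In CR 12m, 11 collagen genes (26.2%) entered state 6, against 4.88% of all genes. There 1 collagen gene, Col9a2, left it (2.38%), again near the background of 3.3%.

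Most of the collagen genes that entered state 6 came from state 8, 9 of 12 in SD 12m and 9 of 11 in CR 12m. This was also so over all genes, with 1119 of 1281 and 798 of 977. SD 3m had 20 collagen TSS in state 8, of which 9 (45%) had state 6 in SD 12m, against 21.9% of the 5098 genes with state 8 in SD 3m. In CR 12m, 9 of the 20 were in state 6 as well, against 15.7%. The 9 genes with state 8 in SD 3m and state 6 in both 12-month groups were Col1a2, Col6a3, Col6a5, Col6a6, Col8a1, Col11a1, Col13a1, Col19a1 and Col24a1. They make up 21.4% of the collagen genes, against 3.04% of all genes with these states. A TSS bin in state 8 in all 3 groups was found in a further 9 genes, Col7a1, Col9a3, Col10a1, Col12a1, Col17a1, Col20a1, Col22a1, Col23a1 and Col28a1, also 21.4%, which is nearer to its background of 14.4%. State 6 in all 3 groups was found in 7 genes (16.7%), Col2a1, Col6a4, Col8a2, Col9a1, Col15a1, Col25a1 and Col26a1, against 6.10% of all genes.

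**Figure D2:**
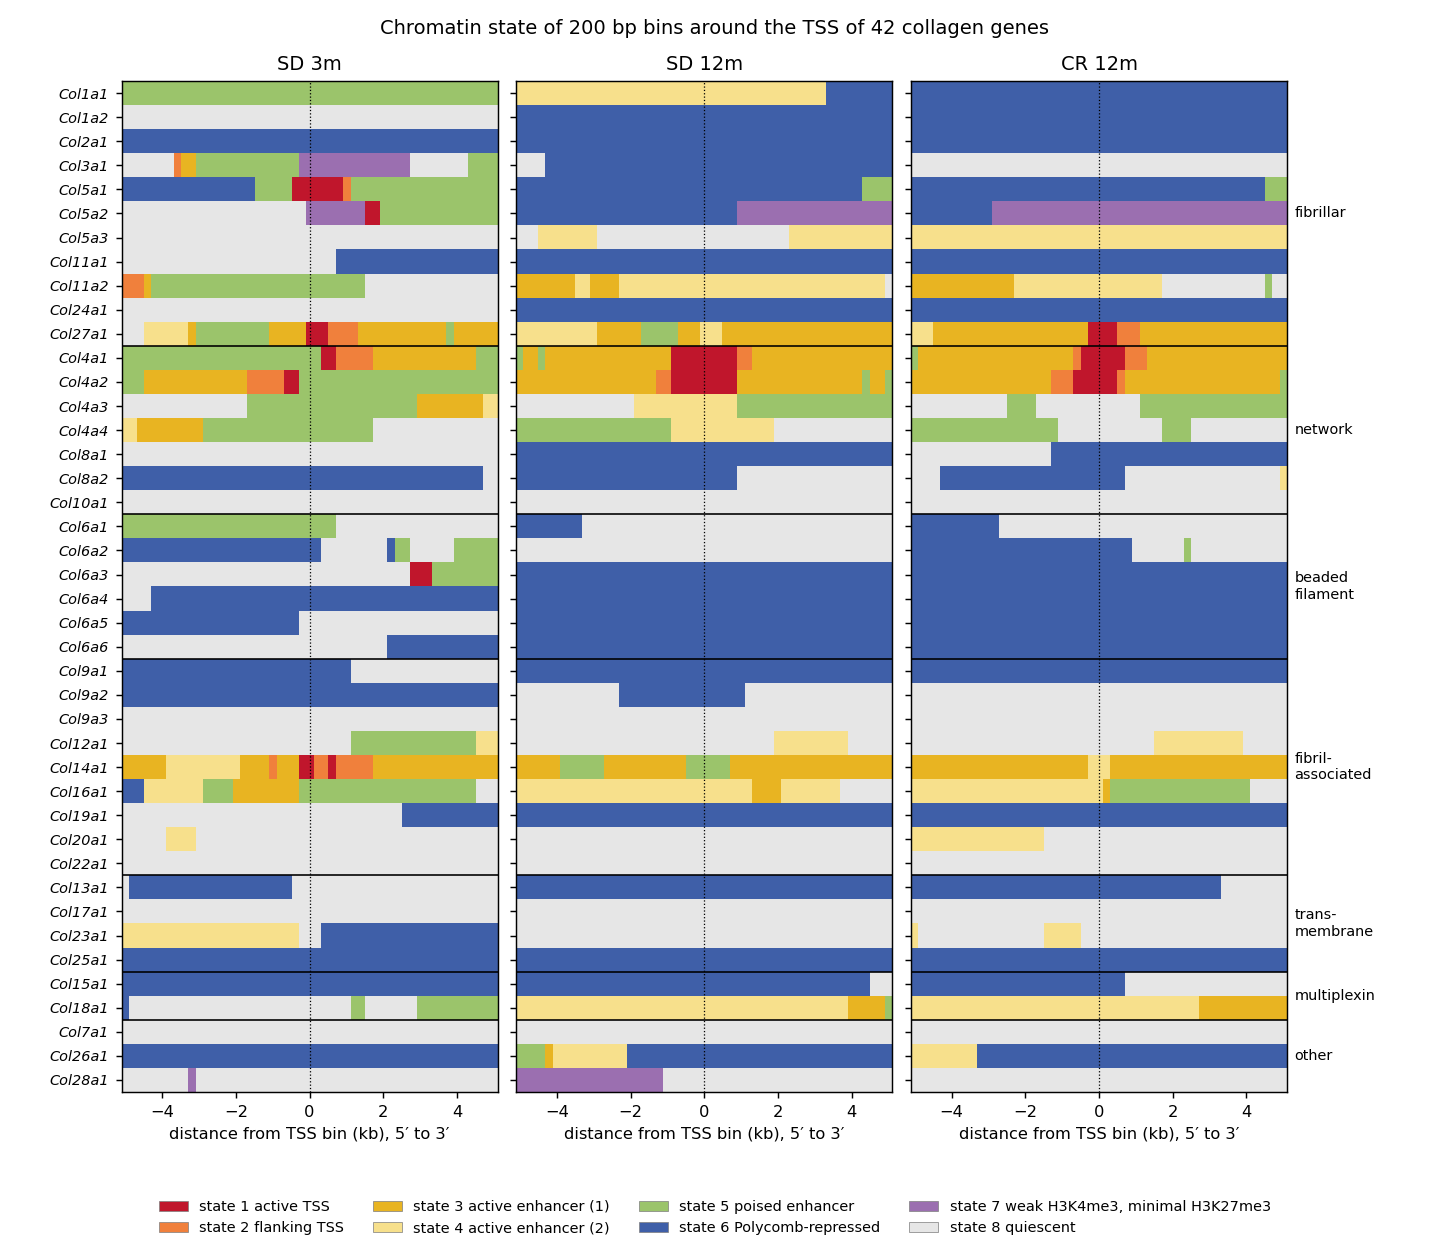
Each row is 1 of the 42 collagen genes, grouped by structural class, and each cell the chromatin state of a 200 bp bin by its distance from the TSS bin in kb (x axis, 5′ to 3′ of the gene) in SD 3m, SD 12m and CR 12m. State 6 lies over the TSS bin in 9, 20 and 19 rows (in 7, 17 and 15 over every bin within 2 kb of the TSS), and states 1 and 2 in 3, 2 and 3 rows.

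The state of a collagen TSS usually extended well past the single bin. All 20 bins of the window within 2 kb of the TSS shared 1 state in 22, 31 and 27 collagen genes (SD 3m, SD 12m and CR 12m), which is 52.4%, 73.8% and 64.3% against 32.3%, 34.1% and 36.3% of all genes. For state 6, such uniform windows numbered 7, 17 and 15 (16.7%, 40.5% and 35.7%), against 7.88%, 11.5% and 9.50% of all genes. Among collagen genes with the TSS bin in state 6, this was 7 of 9, 17 of 20 and 15 of 19. Among all genes with that TSS state it was 1578 of 1996, 2297 of 2764 and 1901 of 2312, a similar part. Of all genes in SD 3m, 9298 had a TSS bin in state 1 or 2. Only 4 windows were wholly in state 1 and 88 in state 2. Of all window bins of the collagen genes, state 6 took 24.0%, 45.6% and 42.5%, against 10.5%, 13.8% and 11.6% for all genes. States 1 and 2 took 5.0%, 2.62% and 3.21% of the collagen window bins, against 34.1%, 22.5% and 19.7% for all genes. The unbroken stretch of state 6 around a collagen TSS had a median length of 19.6 kb in SD 3m (9 genes), 34.4 kb in SD 12m (20 genes) and 33.0 kb in CR 12m (19 genes). Over all genes with a TSS in state 6 it was 29.2, 32.8 and 31.2 kb.

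Of the 11 fibrillar collagen genes, 1, 7 and 6 had the TSS bin in state 6. Type I collagen, the main fibril-former of scar tissue, is a trimer of the chains encoded by Col1a1 and Col1a2. Col1a1 (chr11:94936224-94953042, forward strand) had its TSS bin in states 5, 4 and 6. The whole window within 2 kb of its TSS had that 1 state in each group. State 6 covered 0%, 76.2% and 100% of its gene body, which in both 12-month groups was the largest excess over SD 3m of any collagen gene. Enhancer states 3 to 5 covered 35.7%, 22.6% and 0% of it. In CR 12m the TSS lay in an unbroken stretch of state 6 of 129 kb, 112 kb of it upstream of the TSS.

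Col1a2 (chr6:4505618-4541543, forward strand) had its TSS bin in state 8 in SD 3m and in state 6 in both 12-month groups. State 6 covered 1.67%, 42.2% and 24.4% of its body in SD 3m, SD 12m and CR 12m. Both genes of type I collagen thus had more of the gene body in state 6 at 12 months, Col1a1 with more in CR 12m than in SD 12m and Col1a2 the other way round. The state 6 stretch over the Col1a2 TSS was 28.8 kb in SD 12m and 33.4 kb in CR 12m.

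Col3a1 (chr1:45311538-45349706, forward strand) encodes type III collagen, which forms the reticular fibres of liver. Its TSS bin was in states 7, 6 and 8. State 6 covered 0%, 21.5% and 0% of its body and state 8 covered 65.4%, 78.5% and 100%. The body held 27.7% of state 5 in SD 3m and none of states 3 to 5 in either 12-month group. In CR 12m the whole gene lay in a stretch of state 8 of 137 kb.

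Type V collagen joins type I collagen in fibrils and limits their diameter. Col5a1 (chr2:27886425-28039510, forward strand) was the 1 fibrillar gene with state 1 at the TSS in SD 3m and state 6 at 12 months, in SD 12m as in CR 12m. The 1.4 kb stretch of state 1 at its TSS in SD 3m was flanked by states 2, 5 and 6 within the window, and the window was entirely in state 6 in both 12-month groups. Only 9 genes of all 20021 had the states 1, 6 and 6 in this order. Enhancer states covered 37.1%, 7.05% and 4.57% of its body, and state 6 covered 5.22%, 7.44% and 29.9%.

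Col5a2 (chr1:45374331-45503282, reverse strand) had its TSS bin in states 7, 6 and 7. In SD 3m, 0.4 kb of state 1 began 1.48 kb downstream of its TSS. State 7 covered 1.40%, 22.5% and 9.47% of its body, the largest excess of state 7 over SD 3m among the collagen genes in each 12-month group. State 5 covered 30.9% of it in SD 3m, and states 3 to 5 were absent from it in both 12-month groups. Col5a3 (chr9:20770057-20815067, reverse strand), the gene of another type V chain, had more enhancer states at 12 months. States 3 to 5 covered 68.4%, 89.3% and 100% of its body, and state 6 covered none of it. Its TSS bin was in states 8, 8 and 4.

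Among other fibrillar genes, the TSS bins of Col2a1, Col11a1 and Col24a1 were in state 6 at 12 months and that of Col11a2 in state 4. Over the pooled bodies of the 11 fibrillar genes, state 8 took 73.8%, 66.1% and 64.3%. Col2a1, the type II collagen gene of cartilage, had a TSS in state 6 in each group, with 27.4%, 61.0% and 44.5% of its body in state 6. Col11a1 (chr3:114030540-114220756) had the states 8, 6 and 6 at its TSS, with 2.52%, 5.89% and 18.3% of the body in state 6, and SD 12m also had 10.8% of it in state 7. Col24a1 (chr3:145292472-145552011) had the same TSS states, with 7.01%, 25.2% and 22.3% of the body in state 6. Col11a2 had the states 5, 4 and 4 at its TSS and no state 6 in its body.

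Col27a1 (chr4:63215412-63334991, forward strand), a fibrillar collagen gene of cartilage, had enhancer or TSS states at its TSS. Its TSS bin was in states 1, 4 and 1. Enhancer states covered 65.6%, 78.4% and 99.0% of its body, the largest excess over SD 3m of any collagen gene in CR 12m. State 8 covered 33.3%, 21.6% and 0% of it.

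The network-forming collagens include the genes of basement membranes. Col4a1 and Col4a2, whose chains form the main type IV network of all basement membranes, were the 2 collagen genes with state 1 at the TSS in both 12-month groups. Col4a1 (chr8:11198423-11312826, reverse strand) and Col4a2 (chr8:11312805-11449287, forward strand) point away from each other. Their 5′ ends overlap, with annotated TSS 21 bp apart, so that they share a TSS bin and the 2 counts come from the same bin. That bin was in state 5 in SD 3m and in state 1 in SD 12m and CR 12m. In SD 3m a stretch of states 1 and 2 of 1.4 kb began 0.226 kb inside Col4a1. Of all genes with a TSS bin in state 5 in SD 3m, 2.73% and 2.07% were in state 1 or 2 in the 12-month groups. Among collagen genes this was 2 of 8 in each, which is the shared bin of this pair. Enhancer states covered 60.3%, 64.7% and 60.5% of the Col4a1 body and 78.2%, 73.8% and 76.2% of the Col4a2 body, and state 6 covered none of either.

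Col4a3 (chr1:82586921-82722059, forward strand) and Col4a4 (chr1:82450723-82586849, reverse strand), whose chains form the basement membrane of the kidney glomerulus, also point away from each other but do not overlap. Their TSS lie 72 bp apart in a single bin. This bin was in states 5, 4 and 8. State 6 covered 0%, 20.4% and 13.1% of the Col4a4 body. It covered 0%, 15.4% and 0% of the Col4a3 body. The state 7 share of Col4a4 was 0%, 10.4% and 7.94%.

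Col8a1 and Col8a2 encode the chains of type VIII collagen, a short-chain network collagen of vessels and cornea. Col8a1 (chr16:57624256-57754737) had the TSS states 8, 6 and 6, with 15%, 38.9% and 38.1% of its body in state 6. Col8a2 (chr4:126286794-126314330) had state 6 at its TSS in each group but 43.5%, 18.8% and 10.9% of its body in state 6. Enhancer states covered 34.8%, 37.0% and 63.0% of the Col8a2 body. Col10a1, the gene of growth plate cartilage collagen, was in state 8 over its whole body in all 3 groups.

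Type VI collagen forms beaded filaments, from trimers of the chains of Col6a1 and Col6a2 with a chain encoded by Col6a3 or by one of its relatives Col6a4, Col6a5 and Col6a6. The TSS bin was in state 6 in 2, 4 and 5 of these 6 genes. Col6a3 (chr1:90766860-90843971, reverse strand) had the TSS states 8, 6 and 6. State 6 covered 13.0%, 82.1% and 59.1% of its body, and enhancer states covered 25.1% in SD 3m and none at 12 months. In SD 3m, 0.6 kb of state 1 began 2.77 kb downstream of the annotated TSS, with no annotated transcript start within 1 kb. Neither 12-month group had state 1 or 2 in this gene.

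Col6a4, Col6a5 and Col6a6 lie side by side on chromosome 9, on the reverse strand. Col6a4 (chr9:105990318-106096691) had state 6 at the TSS in each group, over 32.0%, 100% and 43.1% of its body. Col6a5 (chr9:105856070-105960643) had the TSS states 8, 6 and 6 and 29.8%, 76.5% and 65.8% of its body in state 6. In SD 12m the TSS of both lay in a single unbroken stretch of state 6 of 208 kb. Col6a6 (chr9:105689417-105828085) also had the TSS states 8, 6 and 6, but only 8.08%, 6.06% and 16.0% of its body was in state 6. Over the span from Col6a5 to Col6a4, which includes the 29.7 kb between them, state 6 took 34.3%, 89.8% and 56.4%.

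Col6a1 and Col6a2, which both encode chains of the common type VI trimer, had little state 6 in their bodies. Col6a1 (chr10:76708792-76726044, reverse strand) had its TSS bin in state 5 in SD 3m and in state 8 in both 12-month groups, with none of its body in state 6. Col6a2 (chr10:76595756-76623404, reverse strand) had the TSS states 6, 8 and 6, and 1.45%, 0% and 2.90% of its body in state 6. The 85.4 kb between these genes are not part of either. Over the whole span of the pair, state 6 took 6.61%, 14.9% and 30.4%.

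**Figure D3:**
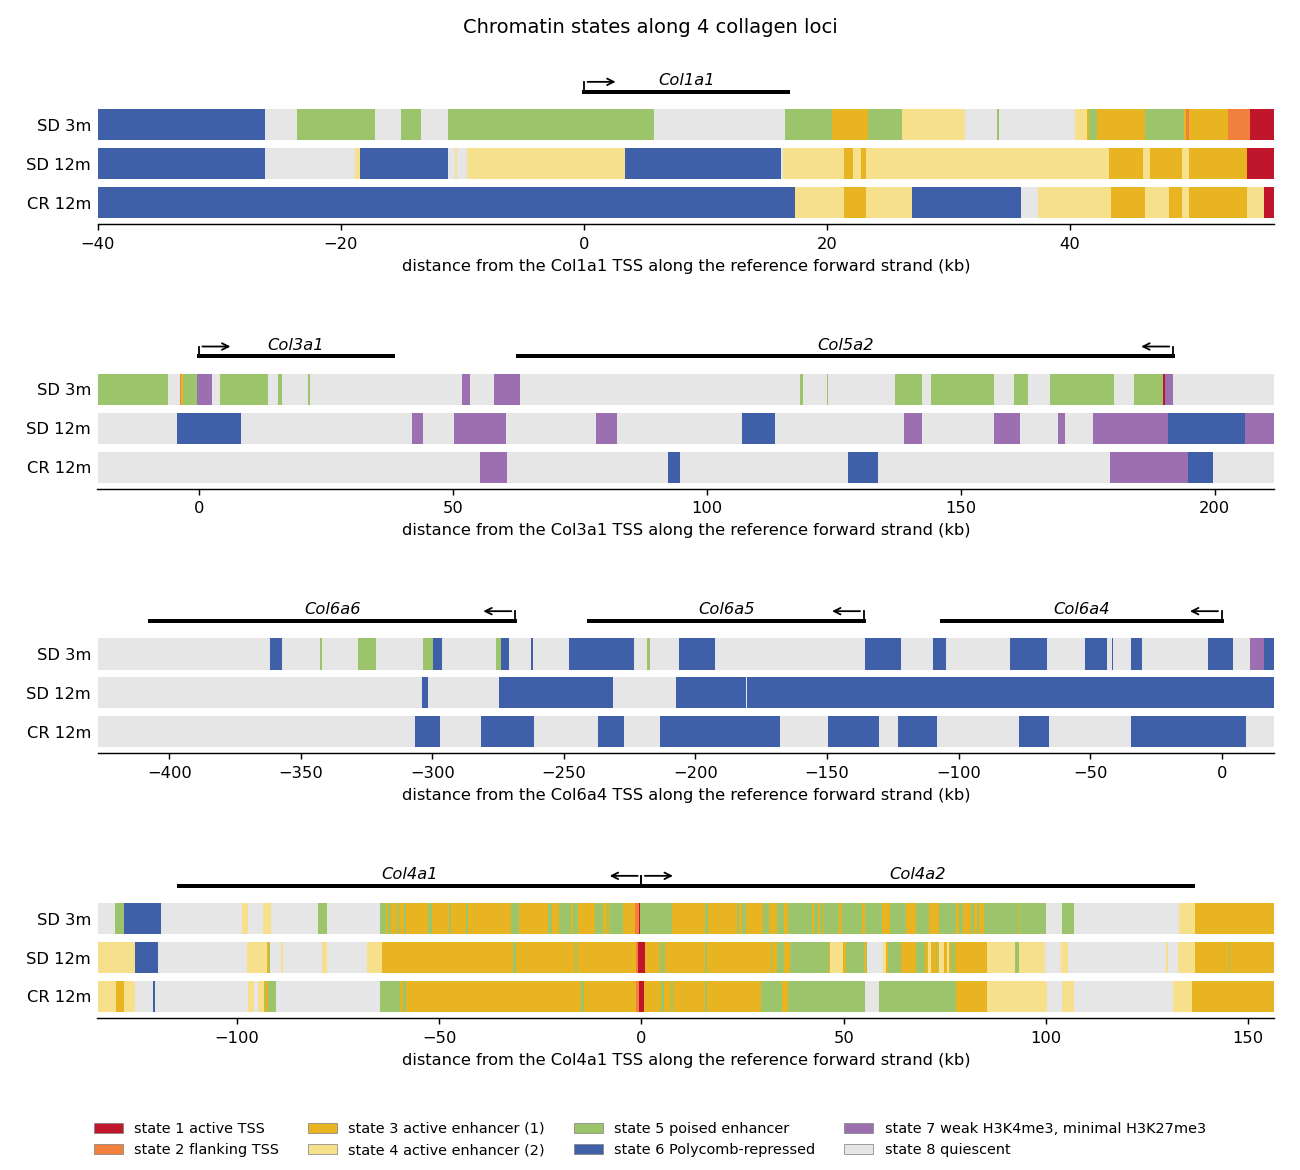
Chromatin states along 4 collagen loci, drawn to scale by distance in kb from 1 TSS (x axis), with a row for each group and gene bodies as black bars with an arrow at the TSS. State 6 covers 0%, 76.2% and 100% of Col1a1, 0%, 21.5% and 0% of Col3a1 and 32.0%, 100% and 43.1% of Col6a4 in SD 3m, SD 12m and CR 12m, whereas Col4a1 and Col4a2 show TSS and enhancer states in each group.

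Among the 9 fibril-associated collagens, which sit on the surface of fibrils, 2, 3 and 2 had the TSS bin in state 6. Col14a1 (chr15:55307751-55520803, forward strand), which binds type I collagen fibrils and is made by liver fibroblasts, had its TSS bin in states 1, 5 and 4. Its whole window held states 1 to 3 in SD 3m and states 3 to 5 at 12 months. Enhancer states covered 44.4%, 23.7% and 19.2% of its body and state 8 covered 51.3%, 76.1% and 80.8%. Unlike Col5a1, which had state 1 at the TSS in SD 3m too, Col14a1 had at most 3.57% of state 6 in its body, in SD 3m.

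Col9a1 and Col19a1 are neighbours on chromosome 1 with 4.94 kb between them. Col9a1, a gene of cartilage type IX collagen (chr1:24177610-24252738), had state 6 at its TSS in each group, over 2.93%, 57.2% and 50.5% of its body. Col19a1 (chr1:24257683-24587437) had the TSS states 8, 6 and 6 and 5.40%, 63.1% and 54.7% of its body in state 6. Over the 410 kb from the one TSS to the other, state 6 took 4.88%, 62.5% and 54.5%. Col9a1 and Col19a1 were, after Col1a1, the collagen genes with the largest excess of state 6 in CR 12m.

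Col9a2, another gene of type IX collagen (chr4:121039566-121055325), showed the opposite order. Its TSS bin was in states 6, 6 and 8, and state 6 covered 32.9%, 6.33% and 0% of its body. Col20a1 had 12.3% of its body in state 6 in SD 3m and 0% in both 12-month groups, where the body was entirely in state 8. Col16a1 (chr4:130047840-130099277) had the TSS states 5, 4 and 4, with 20.2%, 42% and 48.2% of its body in enhancer states. Col22a1 had state 8 at its TSS in each group but 3.82%, 28.4% and 8.06% of its body in state 6. Col9a3 had at most 3.33% of its body in state 6, and Col12a1 had none.

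The 4 transmembrane collagens have a single membrane-spanning segment and are known from the neuromuscular junction, neurons and epithelia. Col13a1 (chr10:61838234-61979108) had the TSS states 8, 6 and 6, with 0%, 17.0% and 7.09% of its body in state 6. Col25a1 (chr3:130180845-130599883) had state 6 at its TSS in each group and 40%, 5.39% and 6.16% of its 419 kb body in state 6, which in both 12-month groups was the largest deficit against SD 3m of any collagen gene. In Col23a1 state 6 covered 17.4%, 19.6% and 23.5% of the body, with state 8 at the TSS in each group. Col17a1, a gene of the hemidesmosomes of skin, had no state 6.

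The multiplexins Col15a1 and Col18a1 encode basement membrane collagens whose ends are released as restin and endostatin. Col15a1 (chr4:47208012-47313165, forward strand) combined state 6 at its TSS in each group with enhancer states over 88.6%, 84.2% and 79.1% of its body. The state 6 stretch over its TSS reached 10.6 kb into the gene in SD 3m, 4.59 kb in SD 12m and 0.788 kb in CR 12m. Col18a1 (chr10:77052179-77166530, reverse strand), which hepatocytes are known to express, had the TSS states 8, 4 and 4 at the start of its longest transcript. The other curated TSS of Col18a1 lies 52.8 kb downstream and was in state 1 in each group. Enhancer states covered 78.3%, 96.3% and 97.0% of the Col18a1 body and state 6 covered none of it.

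The remaining 3 genes were Col7a1, Col26a1 and Col28a1. Col7a1, which encodes the anchoring fibrils of skin, was in state 8 over its whole body in each group. Col26a1 (chr5:136741760-136883215) had state 6 at its TSS and over 59.3%, 70.9% and 85.1% of its body, the highest share of any collagen gene in SD 3m. Col28a1 had state 8 at its TSS and 0%, 9.45% and 8.32% of its body in state 6.

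Collagen genes are long, with a median of 110 kb against 16.9 kb for all genes, and 38 of the 42 reach 20 kb against 45.4% of all genes. Over the gene bodies, at least 10 percentage points more state 6 than in SD 3m were seen in 16 collagen genes (38.1%) in SD 12m, against 9.07% of all genes, and in 14 (33.3%) in CR 12m, against 7.26%. Restricted to genes of at least 20 kb, this was 15 of 38 collagen genes against 11.1% in SD 12m and 13 of 38 against 9.05% in CR 12m. At least 10 points less state 6 than in SD 3m was seen in 4 collagen genes in each 12-month group, Col8a2, Col9a2, Col20a1 and Col25a1, against 6.05% and 6.72% of all genes. These 4 make up 9.52% of the collagen genes, and with genes of at least 20 kb only they are 3 of 38 (7.89%), against 7.08% and 7.68%.

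State 6 rarely took most of a collagen gene in SD 3m. It covered at least 50% of the body of 1 collagen gene (Col26a1) in SD 3m, of 8 in SD 12m and of 6 in CR 12m, which is 2.38%, 19% and 14.3%. Over all genes this share was 8.04%, 10.3% and 8.56%. The median share of state 6 over the 42 bodies was 2.1%, 6.19% and 6.18%, and 0% over all genes in each group. The median difference from SD 3m over the collagen genes was 1.09 points in SD 12m and 0.725 points in CR 12m, so that the large differences concern a subset of the genes. State 6 covered more of the body than in SD 3m in 21 collagen genes (50%) in SD 12m and less in 10 (23.8%), against 11.6% and 8.94% of all genes. In CR 12m it covered more in 21 and less in 8, against 10.1% and 9.67%.

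**Figure D4:**
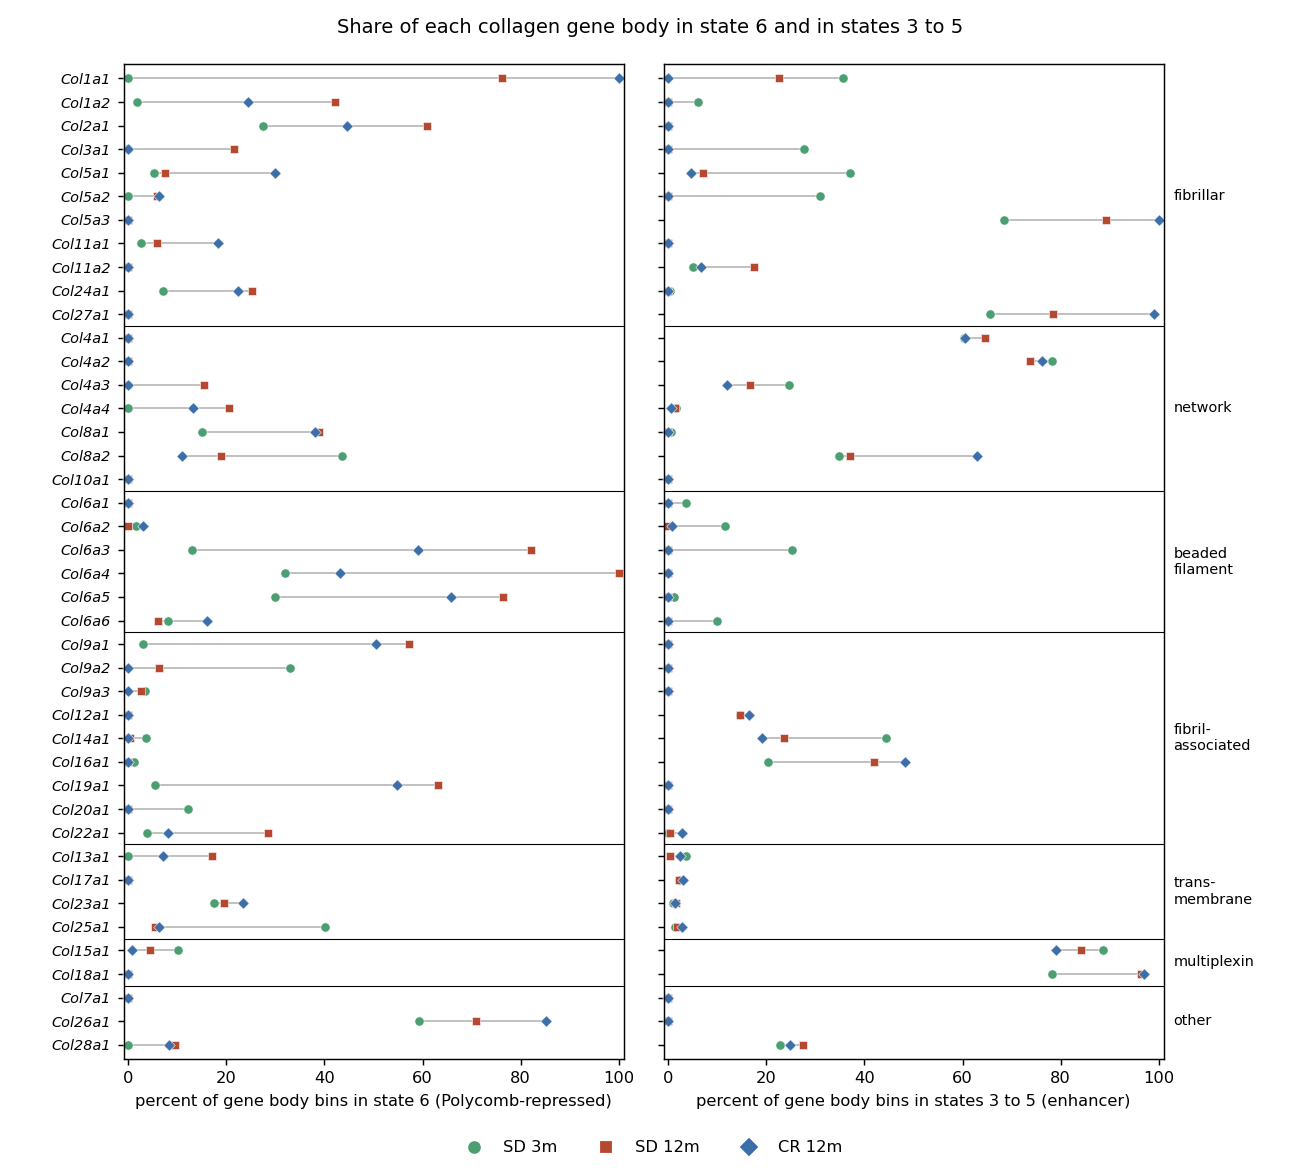
For each of the 42 collagen genes, grouped by structural class, points give the percent of gene body bins (x axes) in state 6 (left) and in states 3 to 5 (right) in SD 3m, SD 12m and CR 12m, 1 segmentation each, and a line joins the lowest and the highest. Large spans in state 6 are those of Col1a1 (0% to 100%), Col6a3 (13.0% to 82.1%) and Col6a4 (32.0% to 100%), while Col4a1, Col4a2 and Col18a1 stay at 0%.

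Enhancer states took less of the typical collagen gene than of the typical gene. The median share of states 3 to 5 was 4.40%, 0.127% and 0.294% of the body, against 36.6%, 46.8% and 50.2% over all genes. Over genes of at least 20 kb it was 5.61%, 0.340% and 1.04% in the collagen genes and 49.1%, 50% and 52.2% in all. At least 10 points more of these states than in SD 3m was seen in 5 collagen genes in SD 12m (Col5a3, Col11a2, Col16a1, Col18a1 and Col27a1), or 11.9%, against 23.3% of all genes. In CR 12m it was seen in 5 too (Col5a3, Col8a2, Col16a1, Col18a1 and Col27a1), against 28.1%. Over genes of at least 20 kb, 5 of 38 collagen genes (13.2%) compare with 15.4% in SD 12m, which is near the background, and with 21.3% in CR 12m. At least 10 points less was seen in 7 collagen genes in SD 12m (16.7%, background 7.44%) and in 8 in CR 12m (19%, background 7.28%). Over genes of at least 20 kb the gap was smaller, with 6 of 38 (15.8%) against 10.4% in SD 12m and 7 of 38 (18.4%) against 10.7% in CR 12m. In both lists were the fibrillar genes Col1a1, Col3a1, Col5a1 and Col5a2, the type VI genes Col6a2 and Col6a3, and Col14a1. Col4a3 was the eighth in CR 12m.

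State 7 took 0.255%, 2.18% and 0.757% of the collagen gene bodies, against 1.43%, 5.36% and 2.21% of the bodies of all genes. At least 10 points more of it than in SD 3m was seen in Col4a4, Col5a2 and Col11a1 in SD 12m (7.14%, background 4.22%) and in 0 collagen genes in CR 12m (background 1.71%).

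Where bins of collagen gene bodies had another state than in SD 3m, the most common transition was from state 8 to state 6. State 8 took 3391 kb of the collagen gene bodies in SD 3m. Of this length, 22.7% and 18.7% were in state 6 in the 12-month groups, against 12.7% and 8.56% for the bodies of all genes. The reverse transition was also frequent. Of the 518 kb in state 6 in SD 3m, 53.1% and 54.9% were in state 8, against 35.3% and 40.2% for all genes. These shares pool bins, so that long genes weigh more. Col25a1, the longest collagen gene at 419 kb, had differences in state 6 of -34.7 and -33.9 points of its body. At least 10 points less state 6 was seen in 4 collagen genes (9.52%) in each 12-month group, against 6.05% and 6.72% of all genes. Of the 435 kb in state 5, 35.6% and 39.7% were in state 8, against 14.8% and 17.0%.

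**Figure D5:**
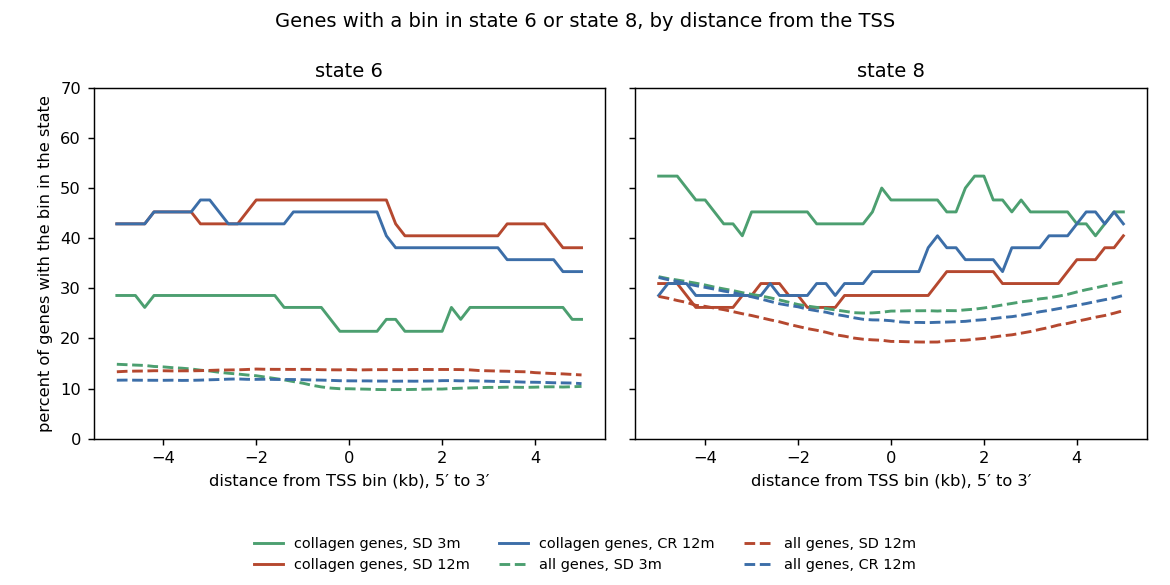
The percent of genes (y axis) whose bin was in state 6 (left) or state 8 (right) by distance from the TSS bin in kb (x axis, 5′ to 3′), for the 42 collagen genes (solid lines) and all genes (dashed lines) in each group. At the TSS bin the collagen lines for state 6 stand at 21.4%, 47.6% and 45.2%, and the lines of all genes at 9.97%, 13.8% and 11.5%.

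CR 12m was also compared with SD 12m directly, which asks about diet at the same age. The TSS bin state differed in 10 collagen genes (23.8%), against 27.1% of all genes, so that the collagen genes were near the background. They were Col1a1, Col3a1, Col4a3, Col4a4, Col5a2, Col5a3, Col6a2, Col9a2, Col14a1 and Col27a1. Col1a1 and Col6a2 were in state 6 in CR 12m but not in SD 12m (background 1.91%), and Col3a1, Col5a2 and Col9a2 in SD 12m but not in CR 12m (background 4.17%).

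In the gene body, CR 12m had at least 10 points more state 6 than SD 12m in 4 collagen genes (9.52%, background 3.87%), Col1a1 with 23.8 points, Col5a1 with 22.5 points, Col26a1 with 14.3 points and Col11a1 with 12.4 points. It had at least 10 points less in 8 collagen genes (19%, background 7.19%). These were Col1a2, Col2a1, Col3a1, Col4a3, Col6a3, Col6a4, Col6a5 and Col22a1, with differences from -10.7 points in Col6a5 to -56.9 points in Col6a4. Over genes of at least 20 kb, 3 of 38 collagen genes had more (background 4.39%) and 8 of 38 less (background 8.52%). So both directions occurred, within the fibrillar class as well.

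The sequences before the TSS were compared over the 33 collagen genes and 15660 genes in all that had an entry for the TSS used here. Col1a1, Col2a1, Col4a3, Col5a2, Col9a3, Col12a1, Col14a1, Col22a1 and Col26a1 had none. The median number of CpG in the 250 bases before the TSS was 10 in collagen genes, with a range from 0 to 31, and 11 in all genes. The highest count, 31, was that of Col4a1, followed by 28 for Col5a1. Collagen promoters in state 8 in SD 3m and in state 6 in SD 12m had a median of 10 CpG (9 genes, from 3 in Col6a3 and Col24a1 to 24 in Col13a1). Those in state 8 in all 3 groups had a median of 3.5 (6 genes, from 0 in Col28a1 to 18 in Col23a1). Over all genes these medians were 4.5 (846 genes) and 2 (2319 genes). The ranges of both sets of collagen promoters overlap.

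Short motifs were searched in the same 250 bases on both strands, and a match is a description of the letters only. GGGCGG was found in 57.6% of the collagen promoters and 44.6% of all promoters, CCAAT in 33.3% and 36.4%, and TATAAA in 15.2% and 12.4%. The 5 collagen promoters with TATAAA were those of Col3a1, Col10a1, Col11a2, Col13a1 and Col17a1.

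Genes that act on collagen differed from the collagen genes themselves in their TSS states. Over 52 such genes, the TSS bin was in state 6 in 7, 7 and 6 of them, that is 13.5%, 13.5% and 11.5%, near the shares of all genes. It was in states 1 and 2 in 19, 13 and 9 of them (36.5%, 25% and 17.3%), below the 46.4%, 40.5% and 35.7% of all genes. In the gene body, 3 and 4 of the 52 in the 12-month groups had at least 10 points more state 6 than in SD 3m, against 9.07% and 7.26% of all genes. At least 10 points less was seen in 5 and 6 of the 52, against 6.05% and 6.72%. In a list of this size, these counts are near the background. Of the 18 enzymes and chaperones of collagen folding and modification, 11, 9 and 7 had the TSS bin in states 1 and 2. A further 5, 6 and 8 had it in the enhancer states 3 to 5, which held 16.6%, 22.6% and 27.7% of all genes. Among these, Colgalt2 was in the poised state 5 in each group. In this list P4hb, a subunit of prolyl 4-hydroxylase, and P4ha1 had state 1 in each group. Serpinh1, the collagen chaperone HSP47, had the states 3, 1 and 4. Plod2, a lysyl hydroxylase, was the 1 gene of the list to enter state 6, in CR 12m (background 4.88%), with the states 1, 8 and 6.

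Of the 13 procollagen proteinases and cross-linking enzymes, 2 entered state 6 in each 12-month group, Tll1 and Loxl1, against 6.4% and 4.88% of all genes. Lox, the founding lysyl oxidase, had the TSS states 6, 6 and 8 and 100%, 14.5% and 31.9% of its body in state 6. Loxl1, which cross-links elastin and collagen, had the TSS states 5, 6 and 6, with 72.4%, 1.57% and 0% of its body in enhancer states. Of 12 genes of collagen degradation and its inhibitors none entered state 6 in either 12-month group, which in so short a list is near these shares. Mmp2, a gelatinase, left it in both, with the TSS states 6, 8 and 8. Timp4, a metalloproteinase inhibitor, left it in CR 12m, with the states 6, 6 and 8. Of all genes, 2.56% and 3.3% left state 6. Of 9 collagen receptors none entered state 6, again near the share of all genes, and Itga2 left it in both 12-month groups, with the states 6, 4 and 8. Ddr2, a receptor for fibrillar collagen, had state 8 at its TSS in each group and 40.8%, 2.74% and 2.92% of its body in enhancer states.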

How the data were processed

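The authors aligned ChIP-seq reads to mm10 with BWA 0.6.2-r126 and filtered them with SAMtools 0.1.18, per the labels' processing notes. After filtering on mapping quality and removal of duplicates, reads were pooled by group and mark, binarized and segmented into 8 states with ChromHMM by the authors. The deposited value is a state label from 1 to 8 for each bin of 200 bp, with no signal or read count, so depth and counting error are unknown. Each segmentation held 13168874 bins, whose number per chromosome equals that of GRCm38.p6 on all 20 chromosomes.

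Here, in Python 3.11.15 with numpy 2.4.6, pandas 2.3.3 and scipy 1.17.1 (figures in matplotlib 3.10.9), states were read at the TSS bin, in bins centred within 2 kb of the TSS and in bins centred in the gene body. TSS and body came from the curated RefSeq transcript with the longest genomic span. The functions were tested on simulated segmentations with known states. The background is every autosomal protein-coding gene with such a transcript. A body difference was counted from 10 percentage points. Groups came from the labels. The gene family and the lists were picked for study with earlier results of these data known, although the symbol rule uses no measured value. Values were given in full for 13 collagen genes of liver interest, for those with state 1 or 2 at the TSS or a change of class there, and for the largest body differences (31 in all), and briefly for the others. SD 6m was not analysed here.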

Additional observations from a re-analysis of the deposited data

How the results depend on the processing

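Of 132 values from alternatives to the choices behind 26 results, 123 stayed within set limits. The limit was 1.5 times for a count and the Wilson 95% interval over bins for a percentage. For a median over genes, the interval used the median number of bins in a gene body. Neighbouring bins share states, so this interval measures no spread between genes or mice. The alternatives moved the TSS to the most upstream curated start, used 3 bins, added predicted transcripts, kept 1 of genes with TSS within 4 kb of each other, narrowed the window to 1 kb, averaged single genes, trimmed the first 2 kb of bodies, used gene records or genes of at least 20 kb, merged the states into 5 classes, and set the body threshold at 5 or 20 points. The transcript longest by summed exons was added after the data were seen and moved none of the results beyond these limits. With 1 such gene kept, the genes with state 1 or 2 at the TSS in SD 12m were 1 instead of 2, and the window share of states 1 and 2 was 1.38% in SD 12m, against 2.13% in CR 12m. With a window of 1 kb that share was 4.76% and 5.71%. Without the first 2 kb, the median enhancer share of the body in SD 12m was 0%. With a threshold of 20 points, 1 gene exceeded SD 3m in state 7 in SD 12m and 9 genes in state 6 in CR 12m. With 5 points, 2 genes exceeded it in state 7 in CR 12m. The counts of genes with state 6 at the TSS kept their values of 9, 20 and 19, except for 10 in SD 3m with predicted transcripts. No paired analysis was possible because each group has 1 segmentation of merged libraries, and for the same reason no library or mouse could be left out in turn. How the depth of the merged libraries bears on these values could not be measured.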

Other observations

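States 1 and 2 also occurred inside collagen genes, away from the TSS used above. In Col15a1 a stretch of these states lay about 90 kb downstream of the TSS in each group, with 1.4 kb in SD 3m, 1.6 kb in SD 12m and 0.4 kb in CR 12m, and with no annotated transcript start within 1 kb. In Col28a1 a stretch of 0.8 kb lay 172 kb downstream of the TSS in SD 12m, and none was seen in SD 3m or CR 12m. In Col18a1 the stretch at the downstream curated TSS was 4.6 kb long in SD 3m, 4.2 kb in SD 12m and 3.4 kb in CR 12m, and SD 3m had further stretches of 0.4 and 0.6 kb downstream of it.

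Other curated TSS of the same gene did not always have the state of the first. The second curated TSS of Col6a6, 18.4 kb from the one used above, was in state 8 in each group, whereas the first had the states 8, 6 and 6. The second of Col9a1, 17.6 kb away, had the states 8, 6 and 6, whereas the first had state 6 in each group.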
